A study of Mus musculus with 22 samples.

Results

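The 7 livers labelled td-Hepa-YC (D28), of 22 liver libraries in all, were ordered by the level of Fah and every other gene was related to that level. Fah was read as log2(RPKM + 0.5), where RPKM is reads scaled to transcript length and to the number of mapped reads, and it was taken as a measure of engrafted hepatocytes. Genes with at least 1 RPKM in 4 or more of the 7 livers were tested, 11489 of 18716 rows of the table. All 22 livers carried the genotype Fah-/-. The mice of the 7 YC livers had received td-Hepatocytes, and YC was given for 28 days once NTBC had been withdrawn. The 8 vehicle livers came from mice transplanted in the same way and given vehicle over the same 28 days. The 7 D0 livers, at day 0, were labelled normal liver, with no transplantation named. The labels say neither what YC is, what td stands for, which Fah alleles the td-Hepatocytes carried, nor the age or sex of the mice. They give numbered livers, and nothing in them says that the numbers are separate animals, so each p-value is set against the spread of these samples alone, and that spread may be technical.

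The enzyme encoded by Fah, fumarylacetoacetate hydrolase, takes the final step in the breakdown of tyrosine. Liver cells without it accumulate toxic intermediates of tyrosine unless NTBC, an inhibitor of the upstream enzyme Hpd, blocks the pathway before they form. In Fah-deficient mice taken off NTBC, transplanted hepatocytes that express Fah survive and expand at the cost of the host's hepatocytes, and for that reason Fah is used as a marker of the engrafted cells. In bulk liver RNA, fewer cells of a type and less RNA per cell cannot be told apart.

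In falling order, Fah (chromosome 7, 84585159 to 84606722) was 407 RPKM in YC 4, 291 in YC 5, 290 in YC 3, 128 in YC 2, 105 in YC 1, 41.3 in YC 6 and 31.5 in YC 7. The values thus fell into close neighbours, YC 5 with YC 3, YC 2 with YC 1 and YC 6 with YC 7, with YC 4 alone at the top. They spanned 3.67 log2 units with an SD of 1.43 (n = 7), and the widest step between neighbours, from YC 1 to YC 6, was 1.34 log2 units or 36.6% of the span. Vehicle livers lay between 271 and 542 RPKM around a median of 401, a range that held YC 4, YC 5 and YC 3. Among D0 livers Fah ran from 21.1 to 38.7 RPKM around a median of 28.6. The transcript was thus not at 0 in livers labelled Fah-/- with no transplantation named. YC 7 lay inside the D0 range while YC 6 lay just above it. The sources used here do not say whether these reads come from the part of the gene that the allele removes. Fah chose the order, so its levels are a description with no test.

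**Figure D1:**
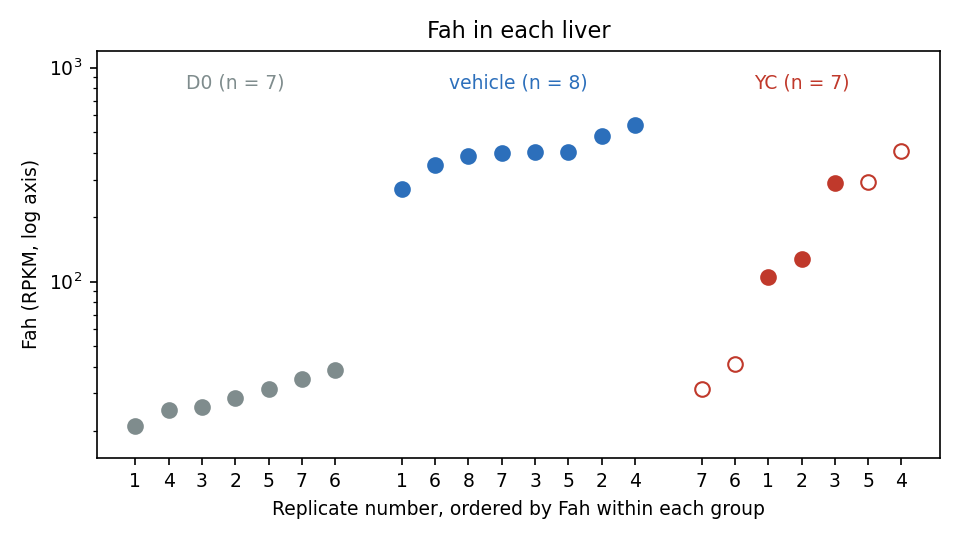
Fah in each liver in RPKM on a log axis, with 1 point per liver ordered by Fah within the D0 (n = 7), vehicle (n = 8) and YC (n = 7) groups; open YC points are libraries in which Y-linked transcripts are listed at 0. The 7 YC livers stretch from 31.5 to 407 RPKM, from the D0 range to the vehicle range, while vehicle livers stay between 271 and 542 RPKM.

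Some libraries stood apart in ways the labels do not give. The summed RPKM of 4 Y-linked genes was 17.4 in YC 3, 25.7 in YC 2 and 31.9 in YC 1 and was listed at 0 in YC 4, YC 5, YC 6 and YC 7, so the libraries with these transcripts hold middle places in the order of Fah. Every vehicle liver had them (5.55 to 35.6 summed RPKM), and D0 livers had 0 to 0.0454. Transcripts of pancreatic acinar cells, which make digestive enzymes, summed to 1160 RPKM in YC 4, with Prss2 at 135, and to 25.9 to 107 RPKM in the other 6 YC livers. Library depth, estimated from the steps between low values, was 50300000 to 82900000 reads in YC livers and was not related to Fah in the test (Pearson's r = -0.10 and Spearman's rho = 0.00, exact permutation adjusted p = 0.844 and 1). The share of all RPKM taken by Alb, the albumin gene, was 7.73, 5.35, 5.65, 4.12, 4.22, 2.47 and 2.52% in falling order of Fah, so that YC 6 and YC 7 held the lowest shares. It moved with Fah at r = 0.94 (exact permutation p = 0.00159, adjusted over 5 measures p = 0.00795), with rho = 0.89 (exact permutation p = 0.0123, adjusted p = 0.0615) and with r = 0.99 without the libraries farthest from the median Fah, YC 7 and YC 4.

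As many as 4538 of the 11489 genes, 39.5%, moved with Fah among the 7 YC livers at a limma adjusted p under 0.05. Of these, 1658 (14.4%) rose with Fah, being higher in livers with more Fah, and 2880 (25.1%) fell with it. Slopes are given as the log2 change per doubling of Fah. The median slope over all tested genes was -0.04 with a median SE of 0.06. Slopes of at least 0.5 were found for 366 risers, and slopes of -0.5 or lower for 181 genes that fell. Slopes of 1 or more were reached by 37 risers and slopes of -1 or lower by 7 genes that fell. Rescaling each library by the median ratio of its genes to their mean moved this split: 4579 genes (39.9%) were then called, 2199 rising (19.1%) and 2380 falling (20.7%), and 4002 genes were called on both scales, all with the same sign. Calls also rested on the libraries with least Fah. Without YC 7 they numbered 2606, with 908 risers and 1698 that fell, and without YC 6 the risers numbered 1087. Without both YC 6 and YC 7, over a Fah span of 1.94 log2 units, 2571 genes were called (22.4%), 837 rising (7.29%) and 1734 falling (15.1%), around a median slope of -0.10. Of these, 1425 had been called with the same sign over all 7 livers and 3 with the opposite sign. Within the 4 livers where Y-linked transcripts are listed at 0, 4580 genes were called, 1692 rising and 2888 falling, and with a term for these transcripts 5195 were called. Within the 3 livers that had them, YC 1, YC 2 and YC 3, 2568 were called, with 1 residual degree of freedom a gene and the spread borrowed across genes. Counts of named gene groups are therefore given over the 7 livers and over the 5 livers without YC 6 and YC 7. They stand beside 14.4% of all tested genes rising and 25.1% falling over the 7 livers, and 7.29% and 15.1% over the 5. For YAP targets the count over the 5 livers is not given. Counts with 1 liver left out stand beside totals that moved too. Risers over all genes numbered 2020 without YC 4 and 908 without YC 7.

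Gckr and Aspdh had the smallest p-values of all tested genes, and both rose with Fah. Gckr, the regulatory protein that holds glucokinase inactive in the hepatocyte nucleus (chromosome 5, 31297443 to 31327314), was 81.2, 57.1, 58.9, 19.7, 15.2, 3.53 and 3.43 RPKM in YC 4, 5, 3, 2, 1, 6 and 7. The livers kept the order of Fah except for YC 5 and YC 3, whose Fah differed by 1 RPKM. YC 2, YC 1, YC 6 and YC 7 lay below every vehicle liver (37.2 to 63.6 RPKM) and every D0 liver (36.3 to 45.6 RPKM). YC 4 lay above them all. Its slope was 1.27 ± 0.05 (SE, limma adjusted p = 6.27e-06). Aspdh, annotated as an aspartate dehydrogenase (chromosome 7, 44465391 to 44467758), was 127, 95.9, 90.5, 43.4, 34.5, 11.5 and 8.79 RPKM in the same order, with a slope of 1.04 ± 0.04 (SE, limma adjusted p = 6.27e-06). Slc6a12, which carries betaine and GABA into cells (chromosome 6, 121343076 to 121365775), was 32.9, 27.1, 26.4, 12.8, 11.3, 3.65 and 3.03 RPKM, with a slope of 0.92 ± 0.05 (SE, limma adjusted p = 1.5e-05). For Aspdh and Slc6a12 the order of the 7 livers was that of Fah without exception. Slopes of Gckr, Aspdh and Slc6a12 over the 5 livers without YC 6 and YC 7 were 1.25, 0.95 and 0.81, each still called.

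**Figure D2:**
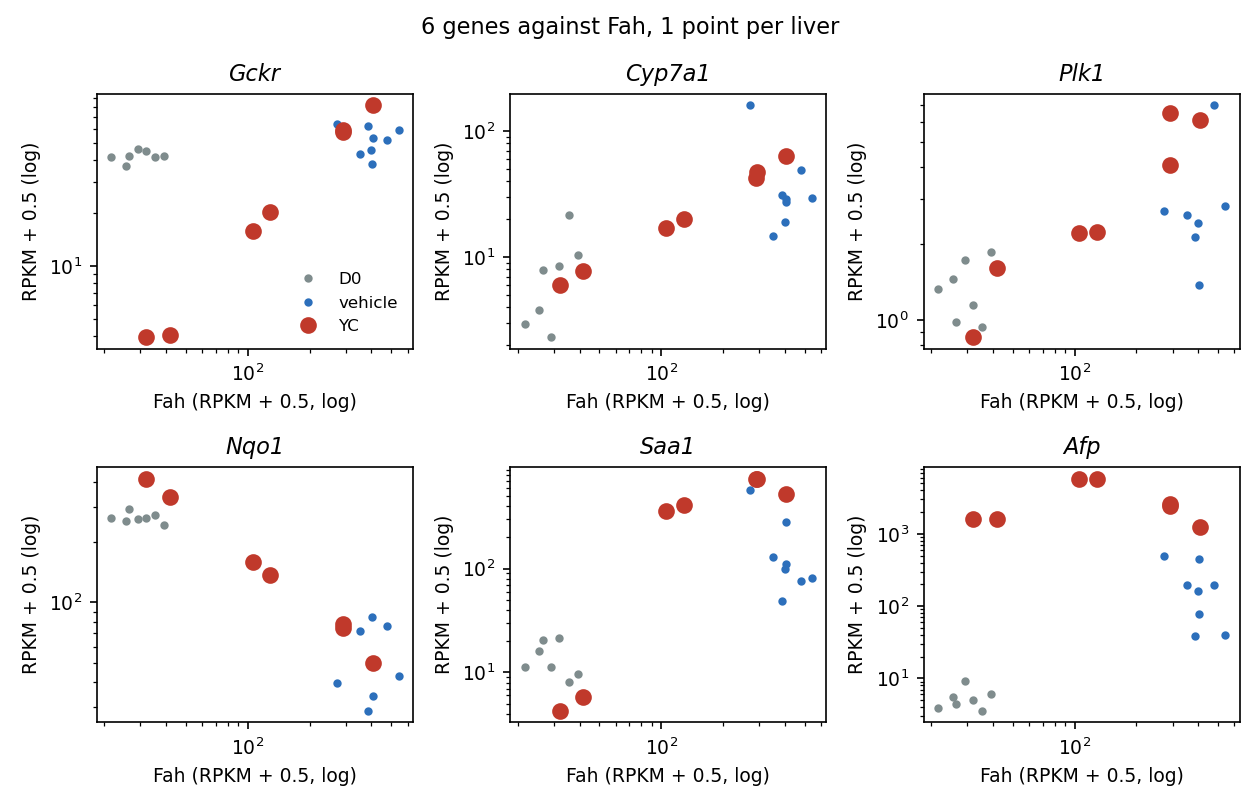
Gckr, Cyp7a1, Plk1, Nqo1, Saa1 and Afp against Fah, both as RPKM + 0.5 on log axes, with 1 point per liver for YC (large red), vehicle (blue) and D0 (grey). Gckr, Cyp7a1 and Plk1 climb with Fah among YC livers, Nqo1 declines, Saa1 drops only in YC 6 and YC 7, and Afp peaks at 5640 and 5800 RPKM in YC 2 and YC 1.

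Of 28 genes of hepatocyte function 12 rose with Fah, 3 fell and 13 were not called, with a median slope of 0.24 against -0.04 over all genes. Without YC 6 and YC 7, 15 rose and 4 fell (median 0.25). Ces3a, a liver carboxylesterase (chromosome 8, 105048601 to 105058413), was 200, 56.8, 195, 9.22, 8.06, 2.96 and 1.06 RPKM in YC 4, 5, 3, 2, 1, 6 and 7. Only YC 4 and YC 3 came near the lowest vehicle liver at 211 RPKM, and its slope was 1.88 ± 0.19 (SE, limma adjusted p = 0.000251). Cyp2c54, a drug-metabolizing cytochrome P450, was 24.4, 9.4, 23.4, 4.09, 3.69, 1.51 and 1.15 RPKM, all below the vehicle range of 40.1 to 116 RPKM. Cyp4f14, a cytochrome P450 that hydroxylates fatty acids and eicosanoids (chromosome 17, 32905070 to 32917342), rose with a slope of 1.37 ± 0.10 from 2.52 RPKM in YC 7 to 108 RPKM in YC 4. In Ces3a, Cyp2c54 and Cyp4f14 alike YC 5 was lower than YC 3, although their Fah was nearly equal. Ces3a, Cyp2c54 and Cyp4f14 belong to families of similar genes, and the division of reads between such copies is uncertain. Hgfac, the protease that activates hepatocyte growth factor (chromosome 5, 35041509 to 35048461), was 149, 95.1, 111, 51.4, 41.3, 6.88 and 3.62 RPKM, with a slope of 1.38 ± 0.10 over the 7 livers and 0.91 without YC 6 and YC 7.

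Not every hepatocyte gene followed. Apoa1, the main protein of high-density lipoprotein and the most abundant member not called, lay between 7710 and 11500 RPKM with a slope of -0.08 ± 0.06 (limma adjusted p = 0.345), and Hnf4a and Cebpa, transcription factors that maintain the hepatocyte state, had slopes of 0.11 ± 0.05 and -0.02 ± 0.08 (limma adjusted p = 0.129 and 0.857). The 3 members that fell with Fah were Tdo2, which opens the tryptophan ring (slope -0.45), Cyp3a25 (-0.39), a cytochrome P450, and Ugt2b5 (-0.39), a glucuronosyltransferase. Tdo2 was 589, 389, 526, 591, 719, 1110 and 1680 RPKM, so YC 6 and YC 7 exceeded the vehicle range of 528 to 893 RPKM.

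Around Fah itself, 3 of the 7 other genes of tyrosine catabolism rose and none fell (median slope 0.16). Tat, which removes the amino group of tyrosine, was 483, 404, 440, 291, 268, 123 and 134 RPKM, with a slope of 0.55 ± 0.05 (SE, limma adjusted p = 0.000165). Hpd, the enzyme that NTBC inhibits, was 1790, 1460, 1290, 799, 684, 639 and 574 RPKM, with a slope of 0.43 ± 0.07 (SE, limma adjusted p = 0.00132). Hgd, the homogentisate dioxygenase of the next step, was 449, 439, 362, 241, 229, 282 and 258 RPKM, with a slope of 0.21 ± 0.08 (SE, limma adjusted p = 0.0488). Tat was lowest in YC 6 and YC 7, whereas Hgd was lowest in YC 2 and YC 1. The call for Hgd was lost when any of YC 3, 4, 5, 6 or 7 was left out (limma adjusted p from 0.0674 to 0.143). Gstz1, the isomerase just before Fah, and Qdpr and Pcbd1, which regenerate the cofactor tetrahydrobiopterin, were likewise lowest in YC 2 or YC 1 and were not called over 7 livers. Gstz1, for example, was 322, 262, 250, 159, 164, 224 and 271 RPKM. Without YC 6 and YC 7 all 7 genes rose, with a median slope of 0.54.

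Zonation genes mark hepatocytes by their place along the sinusoid, from the portal vein to the central vein. Of 13 pericentral genes 7 rose and none fell (median slope 0.43, and 8 rising at 0.86 without YC 6 and YC 7). Rgn, the calcium-binding protein regucalcin, was 550, 282, 321, 69, 57.8, 50.5 and 33 RPKM (slope 1.04 ± 0.13), and Oat, ornithine aminotransferase, was 547, 388, 354, 102, 76, 67.7 and 45.1 RPKM (slope 0.96 ± 0.11). In Rgn and Oat the drop lay between YC 3 and YC 2, and the 4 livers with least Fah were below every vehicle liver (lowest 365 and 212 RPKM). For Rgn, YC 5 and YC 3 were below it too. Glul, the glutamine synthetase of the cells next to the central vein, lay between 126 and 229 RPKM and was not called (slope -0.12 ± 0.06). Of 15 periportal genes 9 rose and none fell (median 0.26), and 5 rose and 1 fell without YC 6 and YC 7 (median 0.20). Hal, which starts histidine breakdown, was 133, 147, 115, 75.5, 69.6, 31.9 and 32.1 RPKM, with a slope of 0.62 ± 0.06 (SE, limma adjusted p = 0.000118).

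Among the 8 genes of the urea cycle, which turns ammonia into urea, 5 rose and none fell (median slope 0.30, and 4 rising at 0.31 without YC 6 and YC 7). Cps1, its entry enzyme (chromosome 1, 67123026 to 67231259), was 1030, 984, 672, 452, 450, 214 and 244 RPKM. YC 4 and YC 5 were above every vehicle liver (438 to 907 RPKM) and YC 6 and YC 7 below, with a slope of 0.61 ± 0.06 (SE, limma adjusted p = 0.00025). Ass1, which joins citrulline and aspartate, was 2770 RPKM in YC 4 and 490 in YC 7 (slope 0.65 ± 0.07). Arg1, the arginase that releases urea, lay between 727 and 1030 RPKM and was not called (slope -0.06 ± 0.05).

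Sterol synthesis had the most uniform movement among the metabolic lists. Of its 17 genes 16 rose and none fell, with a median slope of 0.64 against -0.04 over all genes, and 15 rose with a median of 0.69 without YC 6 and YC 7. Fdps, which makes farnesyl diphosphate, was 221, 262, 189, 69.5, 65.1, 37.7 and 18.3 RPKM in YC 4, 5, 3, 2, 1, 6 and 7 (slope 0.97 ± 0.08), and Dhcr7, which takes the pathway's last step to cholesterol, was 66.1, 71.4, 58.3, 27.7, 29.1, 12.4 and 6.71 RPKM (slope 0.87 ± 0.07). Of 11 genes of lipogenesis 7 rose and 1, Me1, fell (median 0.46, and 5 and 1 at 0.69 without YC 6 and YC 7). Srebf1, a transcription factor of lipid synthesis genes, was 64.4, 53.7, 49.5, 28.2, 24.5, 15.6 and 11.3 RPKM (slope 0.65 ± 0.04), in the exact order of Fah, and Fasn, fatty acid synthase, was 39.5 and 56.2 RPKM in YC 4 and YC 5 and 2.7 in YC 7 (slope 1.02 ± 0.11).

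Transcription factors of the SREBP family bind sterol regulatory elements, and the promoter of Hmgcs1, an early synthase of the sterol pathway, is shown because its upstream window holds such a core among genes that moved together. Hmgcs1 itself was 161, 194, 132, 73.1, 82.8, 51.2 and 41.6 RPKM (slope 0.56 ± 0.07). The window is chr13:119690101-119690350 of GRCm38.p6 on the plus strand, the 250 bases before the start of the gene from RefSeq, with the letters TCACNCCAC, searched on both strands, in capitals.
Hmgcs1: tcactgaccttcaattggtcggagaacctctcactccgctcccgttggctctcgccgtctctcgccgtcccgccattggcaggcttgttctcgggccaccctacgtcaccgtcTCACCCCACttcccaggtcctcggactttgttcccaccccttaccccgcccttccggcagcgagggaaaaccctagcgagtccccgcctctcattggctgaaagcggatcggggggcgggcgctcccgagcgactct
These letters occurred in 1.05% of 32851 RefSeq windows of the same length and in 1 of the 12 windows of sterol synthesis genes. Of the 17 genes on the list 10 had an entry and 1 of these a match. A match is a description of letters and not of binding.

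Bile acids are made from cholesterol, and 5 of 15 genes of their synthesis and transport rose while 1, Cyp7b1, fell (median 0.08, and 7 and 3 at 0.16 without YC 6 and YC 7). Cyp7a1, the rate-limiting enzyme of bile acid synthesis (chromosome 4, 6265612 to 6275633), was 63.3, 46.7, 41.7, 19.7, 16.6, 7.19 and 5.46 RPKM. It followed the order of Fah without exception, with a slope of 0.92 ± 0.04 (SE, limma adjusted p = 1.01e-05), and YC 6 and YC 7 were below every vehicle liver (14.3 to 160 RPKM). Slc27a5, which activates bile acids for conjugation, rose with a slope of 0.64 ± 0.05, Slc10a1, which takes bile acids up from blood, with 0.41 ± 0.06, and Abcb11, which exports them into bile, with 0.51 ± 0.13. Nr1h4 and Nr0b2, the receptor and repressor of bile acid feedback, were not called (slopes of -0.09 ± 0.05 and -0.07 ± 0.06).

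Acute phase genes, secreted by hepatocytes in inflammation, held the steepest slopes of all tested genes, Saa2 and Saa1, which rested on YC 6 and YC 7. Saa1, serum amyloid A (chromosome 7, 46740497 to 46742980), was 524, 737, 725, 409, 363, 5.33 and 3.77 RPKM, and Saa2 was 421, 743, 650, 389, 345, 2.93 and 1.36 RPKM. YC 6 and YC 7 lay below every D0 value of Saa1 (7.58 to 20.8 RPKM), while the other 5 livers overlapped the vehicle range of 48.3 to 569 RPKM at its top or exceeded it. Slopes were 2.11 ± 0.33 for Saa1 and 2.36 ± 0.39 for Saa2 (SE, limma adjusted p = 0.00177 and 0.0023), and neither was called without YC 6 and YC 7, at 0.43 (limma adjusted p = 0.0629) and 0.36 (limma adjusted p = 0.244). These genes are near-identical copies, so their single values are uncertain. Itih4, a serum protein of the inter-alpha-trypsin inhibitor family, was 677, 435, 497, 383, 363, 45.7 and 26.8 RPKM (slope 1.2 ± 0.16), and Crp, C-reactive protein, was 123, 79, 86.3, 48.6, 46.9, 27.7 and 26.7 RPKM (slope 0.57 ± 0.05). Of 18 acute phase genes 8 rose and 1, Saa3, fell (median slope 0.36), 5 rose without YC 7, and 3 rose and 6 fell without YC 6 and YC 7 (median -0.07).

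Hemoglobin transcripts rose with Fah, with lower values at every step down the order. Hba-a1, an alpha globin, was 203, 132, 68.9, 54.8, 30.3, 8.85 and 0.506 RPKM in YC 4, 5, 3, 2, 1, 6 and 7, and Hbb-bs, a beta globin, was 202, 154, 88.6, 64.4, 38.6, 20.6 and 1.72 RPKM. Of the 7 livers only YC 6 and YC 7 left the vehicle ranges of 18.9 to 374 and 27.5 to 724 RPKM. The slopes were 1.72 ± 0.22 and 1.42 ± 0.21 (SE, limma adjusted p = 0.000877 and 0.00157). With Hba-a2, Hbb-bt, the heme synthesis gene Alas2 and the erythroid transcription factor Klf1, 6 of 7 erythroid genes tested rose and none fell (median 1.12, and 6 at 1.06 without YC 6 and YC 7). Of the 13 genes on that list 3 had no row and 3 were too low to be tested. Globin copies are near-identical.

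Transcripts of mitosis also climbed with Fah, from low levels. Of 13 tested genes 12 rose and none fell, with a median slope of 0.53, and 11 rose at 0.86 without YC 6 and YC 7. Without YC 7 and YC 4, the livers farthest from the median Fah, 4 rose at a median of 0.49. Plk1, a kinase of mitotic entry, was 5.64, 6.02, 3.57, 1.72, 1.71, 1.11 and 0.356 RPKM, with a slope of 0.72 ± 0.08 (SE, limma adjusted p = 0.000416). Birc5, which encodes survivin of the chromosomal passenger complex, was 6.34, 7.58, 4.51, 2.27, 1.58, 0.964 and 0.665 RPKM (slope 0.74 ± 0.08), and Cdc20, an activator of the anaphase-promoting complex, was 13.8, 13.7, 8.41, 5, 4.01, 3.33 and 2.39 RPKM (slope 0.61 ± 0.08). YC 4, YC 5 and YC 3 were the 3 highest for Plk1, Birc5 and Cdc20 and lay inside the vehicle ranges. Aurka, another mitotic kinase, was the member not called, between 5.63 and 9.52 RPKM (slope 0.03 ± 0.07, limma adjusted p = 0.761). Of 14 DNA replication genes 5 rose and none fell (median 0.13), 3 rose without YC 6, 2 without YC 7, 2 rose and 1 fell without both (median 0.24), and none rose without YC 7 and YC 4 (median 0.16). Rrm2, a subunit of ribonucleotide reductase, was 14.3, 22.5, 12.6, 6.84, 8.29, 6.92 and 3.95 RPKM (slope 0.48 ± 0.10, limma adjusted p = 0.00423 and 0.0666 without YC 6 and YC 7). Pcna, the sliding clamp of DNA replication, was 48.1, 73.8, 51.4, 40.7, 44.7, 82.8 and 91.8 RPKM and was not called (slope -0.19 ± 0.10), its highest values standing in YC 6 and YC 7.

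Stellate cells make the extracellular matrix of the liver, and their genes split. Col1a1, a collagen chain, was 7.43, 14.4, 14.1, 7.43, 5.3, 1.33 and 1.37 RPKM (slope 0.81 ± 0.12, limma adjusted p = 0.00124), with YC 6 and YC 7 below the vehicle range of 2.34 to 11.1 RPKM. Of 16 stellate cell and matrix genes 7 rose and 2 fell (median 0.21), but 4 rose without YC 6, 3 without YC 7 and none without both, where 1 fell and Col1a1 had a slope of 0.44 (limma adjusted p = 0.256). The members that fell were Lrat, which stores vitamin A in quiescent stellate cells, at 3.72, 11.4, 9.91, 8.92, 10.4, 20.5 and 32.4 RPKM, and Dcn, the proteoglycan decorin.

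Targets of NRF2, the transcription factor of the antioxidant response, fell with Fah. Of 22 targets 16 fell, where 25.1% of all tested genes fell, and none rose, with a median slope of -0.34, and without YC 6 and YC 7, 18 fell and 1 rose (median -0.48). Nqo1, a quinone reductase (chromosome 8, 107388225 to 107403206), was 49.4, 77.3, 74.3, 137, 159, 336 and 414 RPKM in YC 4, 5, 3, 2, 1, 6 and 7. YC 4, YC 5 and YC 3 lay inside the vehicle range of 28.3 to 83.8 RPKM and the other 4 above it, YC 6 and YC 7 also above the D0 range of 242 to 292 RPKM. Its slope was -0.80 ± 0.05 (SE, limma adjusted p = 1.89e-05). Gsta1, a glutathione transferase (chromosome 9, 78230656 to 78242684), was 127, 212, 178, 410, 431, 945 and 1430 RPKM, with a slope of -0.89 ± 0.05 (SE, limma adjusted p = 2.04e-05), and its near copy Gsta2 was 317, 475, 504, 770, 824, 1810 and 2230 RPKM. Srxn1, which restores oxidized peroxiredoxins, was 121, 219, 217, 397, 474, 878 and 789 RPKM (slope -0.71 ± 0.07), and Gclm, a subunit of the enzyme that starts glutathione synthesis, was 103, 116, 172, 201, 216, 550 and 510 RPKM (slope -0.64 ± 0.07). G6pdx, which makes NADPH in the pentose phosphate pathway, fell as well (slope -0.60 ± 0.09). In each of these genes YC 4 was the lowest and YC 6 and YC 7 were the highest. The most abundant member not called, Gstm3, a mu-class glutathione transferase, was 587, 792, 607, 331, 355, 1200 and 764 RPKM (slope -0.14 ± 0.15) and was lowest in YC 2 and YC 1. It was the riser without YC 6 and YC 7, with a slope of 0.56 ± 0.13 (SE, limma adjusted p = 0.0188).

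NRF2 binds antioxidant response elements, and upstream windows of 3 targets that fell are shown because each holds the core letters TGACNNNGC, searched on both strands, in capitals. All are from RefSeq on GRCm38.p6 and lie within the 250 bases before the gene's start. The Gclm window is chr3:122245307-122245556 on the plus strand. The window of Txnrd1, thioredoxin reductase, is chr10:82859009-82859178 on the plus strand. The window of Ugdh, which makes UDP-glucuronic acid, is chr5:65435950-65436092 on the minus strand.
Gclm: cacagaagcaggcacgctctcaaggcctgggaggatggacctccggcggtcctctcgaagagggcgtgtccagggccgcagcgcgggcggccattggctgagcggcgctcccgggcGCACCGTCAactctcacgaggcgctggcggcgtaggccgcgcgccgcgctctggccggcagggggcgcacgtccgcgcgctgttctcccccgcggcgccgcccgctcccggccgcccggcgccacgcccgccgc
Txnrd1: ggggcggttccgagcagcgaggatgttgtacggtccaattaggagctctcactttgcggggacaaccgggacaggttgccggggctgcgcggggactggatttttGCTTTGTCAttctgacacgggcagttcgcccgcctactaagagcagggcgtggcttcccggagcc
Ugdh: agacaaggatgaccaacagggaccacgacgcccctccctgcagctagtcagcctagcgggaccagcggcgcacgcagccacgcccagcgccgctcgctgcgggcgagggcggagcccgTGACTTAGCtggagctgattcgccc
The stretches of Txnrd1 and Ugdh leave out bases annotated as exon. In Gclm and Txnrd1 the capitals are the letters of the reverse strand, and in Ugdh those of the strand shown. Ugdh held a further match on the reverse strand, 94 bases before the start and outside the stretch shown. Txnrd1 was 92.9, 137, 142, 178, 212, 311 and 250 RPKM (slope -0.38 ± 0.06) and Ugdh 259, 353, 349, 387, 449, 812 and 809 RPKM (slope -0.43 ± 0.06). The core letters occurred in 10.2% of all 32851 windows and in 6 of the 24 windows of NRF2 targets. Those 6 belonged to 5 of the 18 targets that had an entry, of 22 on the list. Abcc4 held them as well and was not called (slope -0.07 ± 0.09).

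Targets of p53, the transcription factor of the DNA damage response, fell in part. Of 20 members 9 fell and 2, Bbc3 and Btg2, rose (median slope -0.21), and 8 fell and none rose without YC 6 and YC 7 (median -0.37). Ccng1, a p53-induced cyclin (chromosome 11, 40748552 to 40755311), was 33.2, 56.8, 54.8, 71.5, 81.4, 155 and 185 RPKM. Of the 7 livers, YC 4 alone was within the vehicle range of 21.8 to 52.9 RPKM, and the slope was -0.59 ± 0.06 (SE, limma adjusted p = 0.000163). Cdkn1a, the cell cycle inhibitor p21, was 27.7, 78.5, 73.3, 96.1, 101, 163 and 124 RPKM (slope -0.47 ± 0.11), and Bax, which opens the mitochondrial membrane in apoptosis, was 21, 28.3, 25.6, 42.4, 37.5, 49.5 and 59 RPKM (slope -0.36 ± 0.05). Eda2r, a receptor of the TNF receptor family, was 1.38 RPKM in YC 4 and 9.69 in YC 7 (slope -0.56 ± 0.07), a call lost without YC 6 and YC 7 (slope -0.38, limma adjusted p = 0.0748). Mdm2, which degrades p53, was 13.1 RPKM in YC 4 and 17.6 to 25.2 RPKM in the others and was not called (slope -0.13 ± 0.07). 

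In the integrated stress response Atf4 induces genes of amino acid supply. Of its 15 tested members 4 fell, a share near the 25.1% of all tested genes, and 1, Shmt2, rose (median -0.19, and 5 and 1 at -0.33 without YC 6 and YC 7). Psat1, of serine synthesis, was 9.76, 25.6, 29.1, 59.4, 59.9, 64.3 and 62.1 RPKM, so YC 4 was low and the 4 livers with least Fah were alike (slope -0.58 ± 0.13, limma adjusted p = 0.0087). Asns, asparagine synthetase, ran the same way from 17.2 to 87.1 RPKM (slope -0.50 ± 0.12). Fgf21, a fasting and stress hormone of the liver, was 19.7, 27.6, 31.7, 55.1, 66, 81.1 and 51.4 RPKM (slope -0.43 ± 0.10). All livers but YC 4 were above the vehicle range, which ended at 20.1 RPKM. Atf4 and Ddit3, the factors at the head of the pathway, had slopes of 0.01 ± 0.06 and 0.01 ± 0.08 and were not called. Chaperones of the endoplasmic reticulum leaned the other way, with 6 of 14 rising and 1, Dnajb9, falling (median 0.18). That count rested on the livers with least Fah: 2 rose without YC 6, 2 without YC 7 and none without both.

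Among named genes every decline with Fah steeper than that of the NRF2 target Gsta1, at -0.89, lay outside these lists. Dnajc12, also outside them, had a shallower slope than Gsta1. Meig1, known for its role in meiosis and spermatogenesis (chromosome 2, 3409043 to 3422648), was 1.13, 2, 3.06, 10.8, 13.5, 27 and 61.8 RPKM, climbing at every step as Fah declined, with a slope of -1.32 ± 0.09 (SE, limma adjusted p = 3.52e-05). Tekt5, a tektin of sperm flagella (chromosome 16, 10357948 to 10395490), was 2.07, 3.41, 1.82, 10.8, 13.2, 48 and 32.1 RPKM (slope -1.19 ± 0.11). Defb1, an epithelial antimicrobial peptide (chromosome 8, 21776599 to 21795185), was 3.34, 5.49, 4.35, 8.15, 13.6, 41.1 and 58.9 RPKM (slope -1.06 ± 0.07, limma adjusted p = 3.18e-05). For Meig1, Tekt5 and Defb1, YC 1, YC 6 and YC 7 exceeded the highest vehicle liver, at 4, 5.1 and 13.3 RPKM. Fabp4, the fatty acid carrier of adipocytes and macrophages (chromosome 3, 10204088 to 10208576), was 67.4, 154, 175, 526, 667, 881 and 1210 RPKM, with a slope of -1.02 ± 0.12 (SE, limma adjusted p = 0.000394). Dnajc12, a co-chaperone of aromatic amino acid hydroxylases, was 15.5, 18.2, 20.1, 41.6, 44, 88.6 and 119 RPKM (slope -0.79 ± 0.04, limma adjusted p = 1.86e-05), and Ctsj, a cathepsin, was 0.623, 2.28, 1.37, 8.6, 6.22, 13 and 10.9 RPKM (slope -0.90 ± 0.13). Fabp4, Dnajc12 and Ctsj also kept YC 4, YC 5 and YC 3 below the other 4 livers.

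Sulfotransferases behaved less evenly. Sult1e1, which sulfates estrogen, was 0.615, 2.59, 1.26, 9.08, 8.95, 11.2 and 37.6 RPKM (slope -1.17 ± 0.14), while vehicle livers ran from 0.254 to 100 RPKM, the latter in vehicle 1. Sult2a3 was 3.17, 3.08, 2.28, 1.85, 2.26, 40.5 and 53 RPKM (slope -1.13 ± 0.27, limma adjusted p = 0.0108), so its slope came from YC 6 and YC 7. It was not called without YC 7 (slope -0.90, limma adjusted p = 0.108) and had a slope of 0.25 without both. Sult2a3 has near-identical relatives, which makes its values uncertain.

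**Figure D3:**
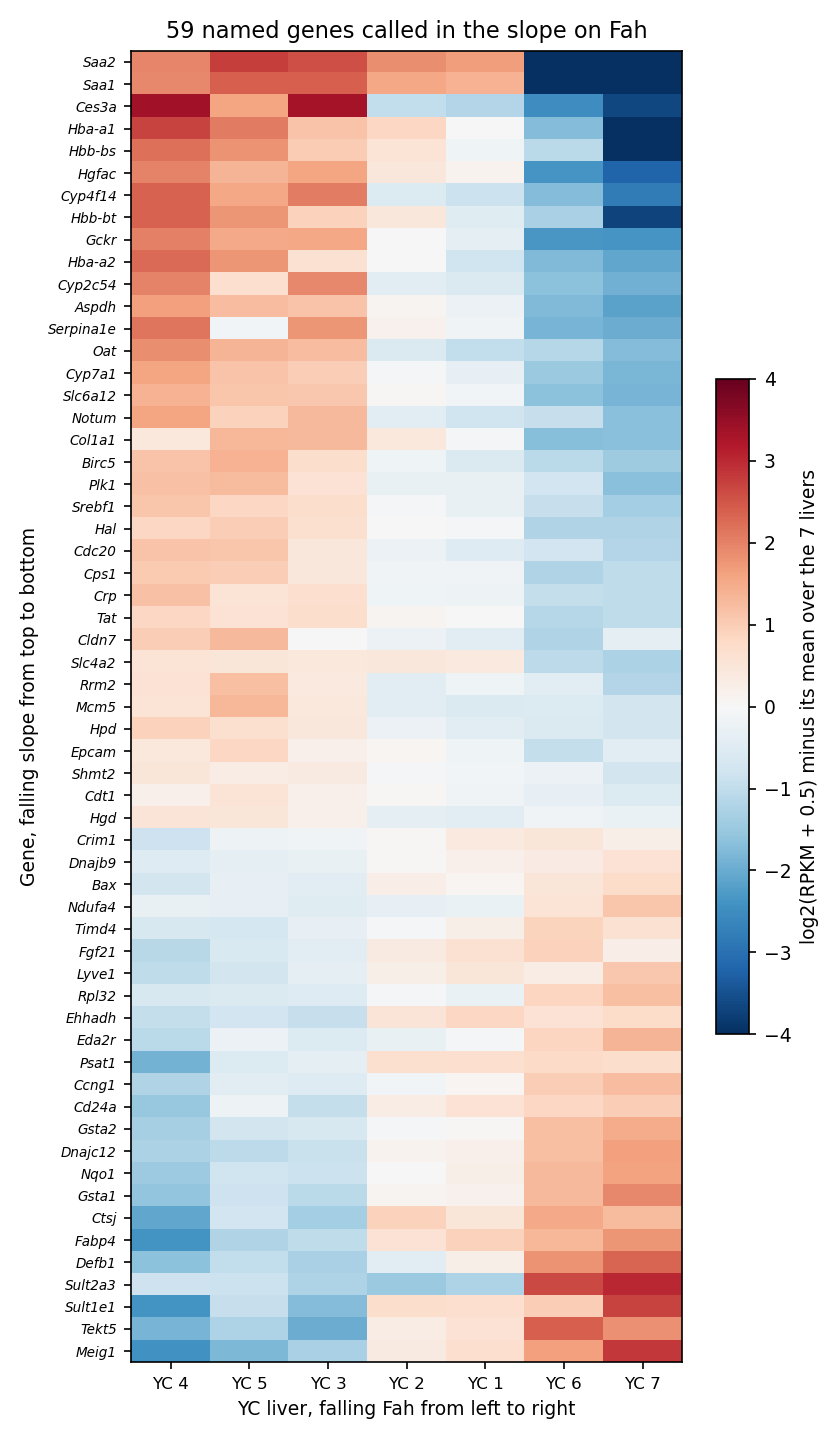
Named genes that passed the test, 59 in all, in rows from the largest to the smallest slope, against the 7 YC livers in falling order of Fah from left to right; colour is log2(RPKM + 0.5) minus the gene's mean over the 7 livers, saturating at 4 units either way. Risers such as Gckr and Cyp7a1 grade from red to blue and genes that fell such as Nqo1 and Meig1 from blue to red, while Saa1, Saa2 and Sult2a3 change between YC 1 and YC 6.

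Fetal liver genes did not follow a line. Afp, alpha-fetoprotein (chromosome 5, 90490737 to 90508907), was 1250, 2460, 2560, 5640, 5800, 1580 and 1600 RPKM in YC 4, 5, 3, 2, 1, 6 and 7. It was highest in the middle of the order and low at both ends, yet each of the 7 livers exceeded the highest vehicle liver at 491 RPKM. Over 7 livers the slope was 0.03 ± 0.22 (SE, limma adjusted p = 0.926), and without YC 6 and YC 7 it was -1.08 ± 0.11 (SE, limma adjusted p = 0.000359). Dlk1, a hepatoblast surface protein, had the same shape at 6.01, 3.05, 3.35, 16.1, 12.9, 4.21 and 2.72 RPKM. Gpc3, a surface proteoglycan of fetal liver, also peaked in the middle, at 50, 97.1, 106, 204, 216, 146 and 130 RPKM. For Gpc3, however, YC 6 and YC 7 stayed above YC 4, YC 5 and YC 3. YC 2 and YC 1, where Afp, Gpc3 and Dlk1 peaked, are 2 of the 3 libraries with Y-linked transcripts. The slope of Afp was -0.07 with a term for these transcripts and -0.86 in YC 1, YC 2 and YC 3 alone. Both are slopes on Fah, and the part of the Y-linked difference in the peak was not tested. Of 11 fetal and oncofetal genes tested 1, Cd24a, fell and none rose (median 0.03), 6 fell without YC 6 and YC 7 (median -0.92), and 2 rose and 1 fell without YC 4 (median 0.08). Cd24a, a surface protein of progenitor cells, was 9.36, 24.1, 14.2, 34.6, 41.5, 50.1 and 55.6 RPKM (slope -0.60 ± 0.10, limma adjusted p = 0.00174).

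Biliary and progenitor genes were mixed, with 3 of 15 rising, where 14.4% of all tested genes rose, and 1, Sox9, falling (median 0.10). Without YC 4, 5 rose, and without YC 6 and YC 7 none rose and 2 fell. Epcam, an adhesion molecule of bile ducts, was 7.96, 10.7, 6.8, 6.15, 5.06, 2.73 and 4.24 RPKM (slope 0.36 ± 0.08). Krt19, a keratin of bile ducts, was 10.2, 26.1, 26.6, 30.1, 20.9, 4.22 and 6.73 RPKM and was not called (slope 0.48 ± 0.20), and Krt8, a keratin of hepatocytes and ducts, was 361, 665, 559, 878, 738, 912 and 681 RPKM (slope -0.21 ± 0.09, limma adjusted p = 0.0838, and -0.33 with limma adjusted p = 0.0418 without YC 7). For Krt8 every liver but YC 4 exceeded the vehicle range of 131 to 432 RPKM. Slc4a2, a bicarbonate exchanger of bile ducts, was 12.7 to 14.1 RPKM in 5 livers and 4.41 and 3.7 RPKM in YC 6 and YC 7, so its call (slope 0.49 ± 0.09) ended without them (slope 0.05).

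YAP and Wnt targets, read-outs of pathways that set liver size and zonation, moved little over the 7 livers. Of 14 YAP targets 3 fell, where 25.1% of all tested genes fell, and none rose (median -0.04). Without YC 4, 3 rose and none fell (median 0.07). Crim1 was 4.89, 7.88, 8.29, 9.48, 12.1, 12.9 and 10.7 RPKM (slope -0.25 ± 0.07, limma adjusted p = 0.0215), a call that was lost without YC 4 or without YC 6 (limma adjusted p = 0.0662 and 0.0849). Without both YC 6 and YC 7 Crim1 was called, with a slope of -0.48 (limma adjusted p = 0.016). Among Wnt feedback targets 2 of 9 rose, where 14.4% of all tested genes rose, with no member falling (median 0.05, and 2 at 0.11 without YC 6 and YC 7). Notum, a secreted Wnt inhibitor, was 22.3, 14.1, 18.1, 5.17, 3.87, 3.56 and 1.91 RPKM, with a slope of 0.84 ± 0.10 (SE, limma adjusted p = 0.000357), and Rnf43, which removes Wnt receptors, rose with 0.29 ± 0.06. Axin2, the general feedback target, was not called (slope 0.05 ± 0.09).

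Male-biased liver genes split. Of 8 tested members of that list, of 15, 3 rose and 2 fell (median -0.03), and without YC 6 and YC 7 none rose and 3 fell (median -0.23). Serpina1e, an alpha-1-antitrypsin copy, was 69, 14.3, 52.8, 17.3, 13.9, 3.89 and 3.54 RPKM (slope 1.02 ± 0.15, limma adjusted p = 0.00108, and 0.95 with limma adjusted p = 0.241 without YC 6 and YC 7). Mup3, a major urinary protein, was 147, 43.9, 148, 17.8, 25.5, 33.3 and 21.6 RPKM (slope 0.64 ± 0.21), high in YC 4 and YC 3, which differ in their Y-linked transcripts, and below every vehicle liver (lowest 189 RPKM) in all 7. Both genes have near-identical copies.

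Resident macrophages, the Kupffer cells of the sinusoid, had 12 genes on their list, of which 9 fell and none rose (median -0.26), but 5 fell without YC 4, 3 without YC 6, 3 without YC 7 and 2 without both YC 6 and YC 7 (median -0.10). Vsig4, a complement receptor of these cells, was 27.9, 32.3, 30.1, 32.1, 33.9, 98.7 and 125 RPKM (slope -0.57 ± 0.09), and Timd4, a receptor for dying cells, was 3.81, 3.6, 4.91, 6.05, 7.4, 11.9 and 9.79 RPKM (slope -0.41 ± 0.06). Vsig4 was raised in YC 6 and YC 7 alone, while Timd4 kept its call without them (slope -0.44, limma adjusted p = 0.0182). Sinusoidal endothelium, the lining of liver capillaries, had 3 risers and 5 genes that fell among its 14 (median -0.02), 3 fell without YC 7, and none rose and 1 fell without YC 6 and YC 7. Lyve1, a hyaluronan receptor, was 6.92, 8.43, 11.1, 17.1, 20.5, 18 and 31.3 RPKM (slope -0.47 ± 0.08, and -0.74 with limma adjusted p = 0.000873 without YC 6 and YC 7), and Bmp2, a signal to hepatocytes for iron control, was 5.17, 4.7, 6.88, 7.56, 6.48, 14.2 and 14.3 RPKM (slope -0.40 ± 0.07). None of 12 genes of infiltrating macrophages, 12 of neutrophils and 3 of lymphocytes was called by limma over 7 livers, and without YC 6 and YC 7, 2 of infiltrating macrophages fell and 1 of lymphocytes rose. Without YC 4 alone, 3 neutrophil genes and 2 of infiltrating macrophages rose, and without YC 6 alone 1 of lymphocytes rose. S100a8, a neutrophil calprotectin subunit, was 13.9, 79.8, 44, 9.78, 27.7, 77.3 and 154 RPKM, with no order by Fah.

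Of 15 ribosomal protein genes 14 fell and none rose (median -0.28), 9 fell without YC 7 and 3 without YC 6 and YC 7 (median -0.14). Rpl32 was 332, 349, 360, 491, 432, 929 and 1200 RPKM (slope -0.50 ± 0.06, limma adjusted p = 0.000652). Of 15 respiratory chain genes 7 fell and 1, Sdha, rose (median -0.16), while 3 fell without YC 6, none without YC 7 and none without both. Ndufa4 lay between 523 and 605 RPKM in 5 livers and was 1060 and 1580 RPKM in YC 6 and YC 7 (slope -0.37 ± 0.08), a call lost without YC 7 (slope -0.25, limma adjusted p = 0.0633). After median-ratio rescaling, where 20.7% of all genes fell, 12 ribosomal and 2 respiratory genes did. Fatty acid oxidation genes moved little over 7 livers, with 2 of 16, Ehhadh and Acot1, falling and none rising (median 0.03), and 8 fell without YC 6 and YC 7 (median -0.21). Ehhadh, an enzyme of peroxisomal oxidation, was 171, 196, 175, 480, 594, 498 and 556 RPKM (slope -0.51 ± 0.10). The step for Ehhadh lay between YC 3 and YC 2.

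**Figure D4:**
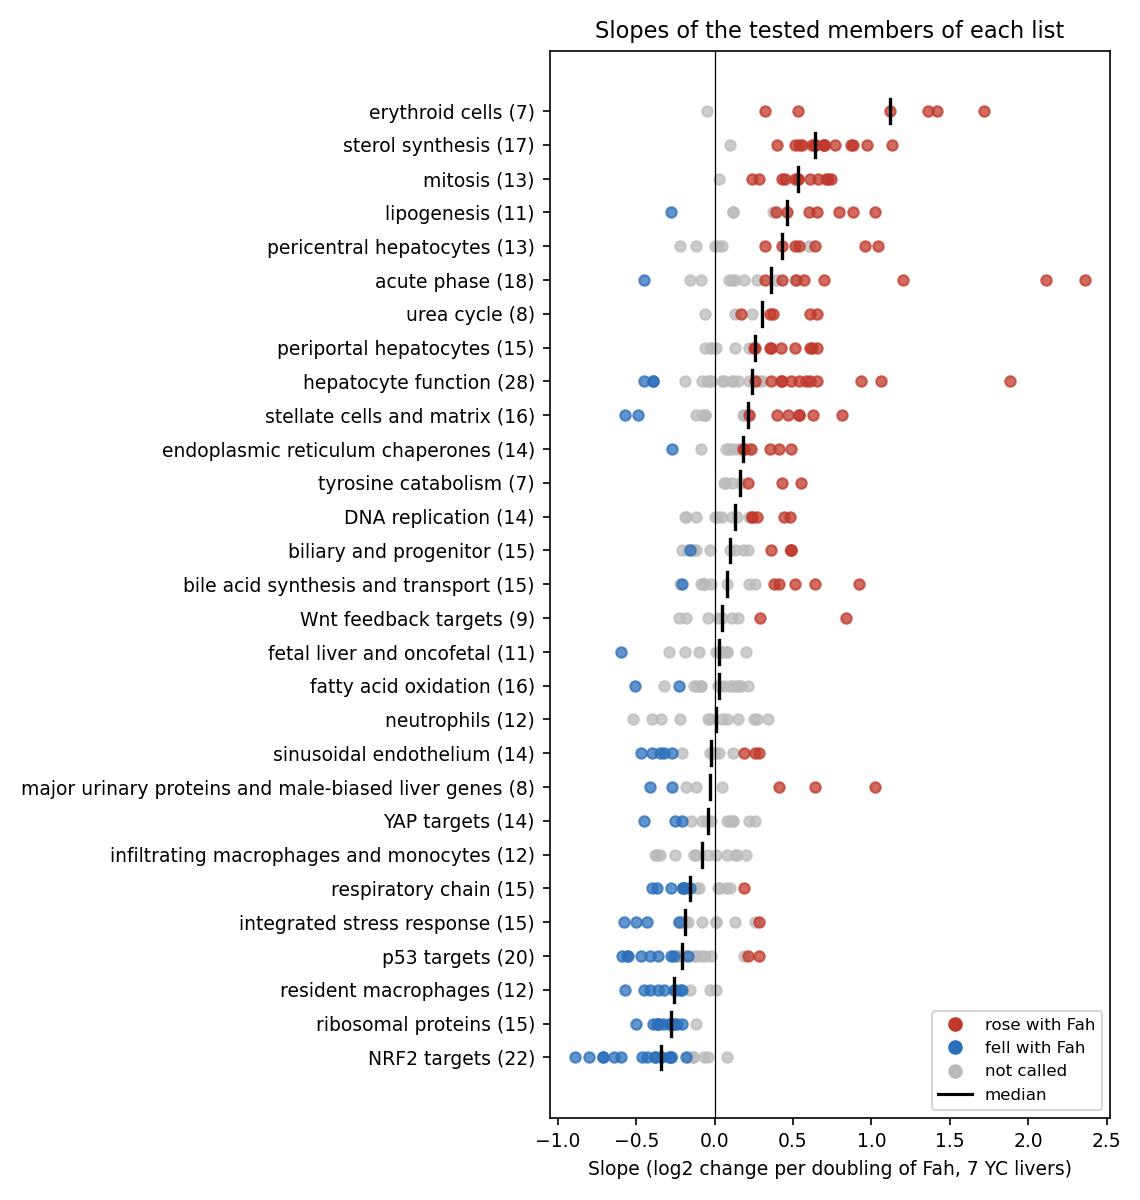
Slopes on Fah among the 7 YC livers (log2 change per doubling of Fah) for the tested members of the 29 lists with at least 5 such members, ordered by median; red points rose, blue points fell, grey points were not called, black bars are medians and the number tested stands beside each name. Erythroid, sterol synthesis and mitosis genes lie to the right, with medians of 1.12, 0.64 and 0.53, and NRF2 targets and ribosomal proteins to the left, with medians of -0.34 and -0.28.

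Set against the 8 vehicle livers, the YC livers with most Fah held the most genes inside the vehicle range. In falling order of Fah 71.6, 52, 57.3, 47.6, 44.7, 44.8 and 43.2% of all tested genes lay between the lowest and the highest vehicle liver. The shares were taken on RPKM as deposited. The median-ratio size factor, a scale for the whole library, was 1.01 in YC 4 and 1.18 to 1.27 in the other YC livers. It was 0.822 to 1.06 in vehicle livers, and the part of this scale in the shares was not tested. Among the 1658 risers the share below every vehicle liver was 1.75, 5.37, 4.64, 22.4, 25.1, 58.8 and 68.8%, and the share above every vehicle liver was 46.2% in YC 4 and 0.0603% in YC 7. Among the 2880 genes that fell the share above every vehicle liver was 6.11, 31.5, 23.7, 41.4, 46.5, 78.3 and 89.5%. Risers and fallers were chosen by their slope over the same livers, so a difference between the ends of the order was built in and these shares are a description. As Fah fell, Nqo1 and Ccng1 left the vehicle range upwards, and Gckr and Cyp7a1 downwards. Gckr was also above that range in YC 4, at 81.2 RPKM against at most 63.6 RPKM.

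**Figure D5:**
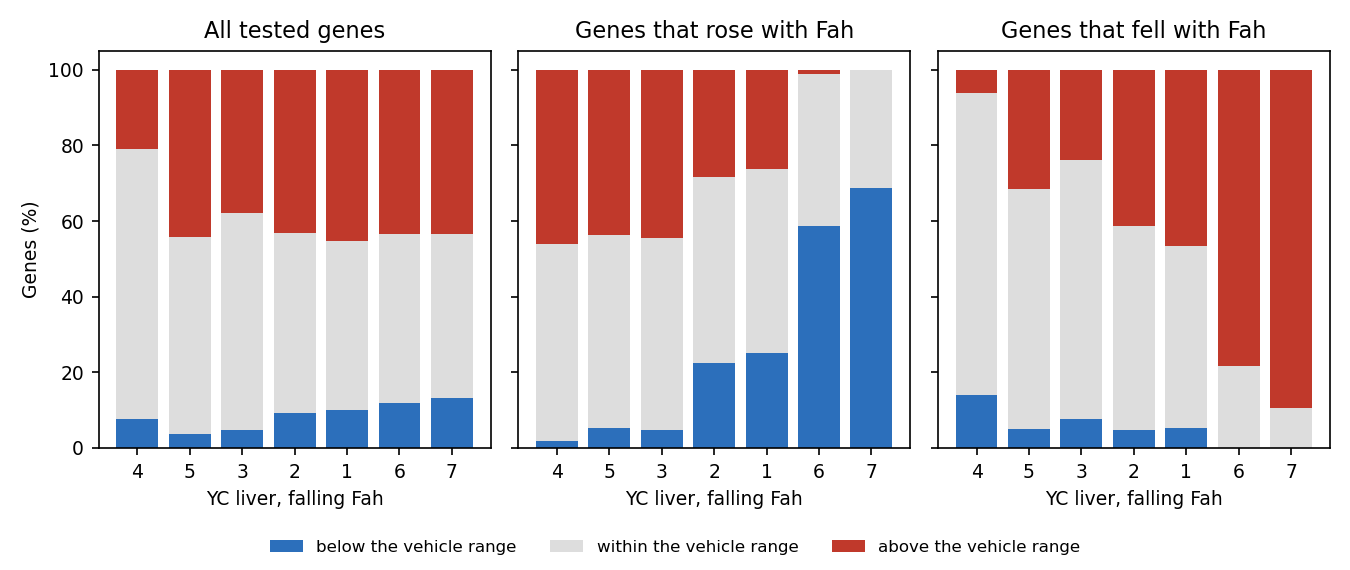
Percent of genes below (blue), within (grey) and above (red) the range of the 8 vehicle livers in each YC liver, in falling order of Fah, for all 11489 tested genes, the 1658 that rose and the 2880 that fell with Fah. Values are RPKM as deposited, without rescaling of libraries. Within-range shares go from 71.6% in YC 4 to 43.2% in YC 7 for all genes and from 80 to 10.5% for the genes that fell.

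The same slope was fitted within the other groups, whose Fah varied far less. Among the 8 vehicle livers, over 1 log2 unit of Fah, no gene was called (0%), with 3049 genes (26.5%) at an unadjusted limma p under 0.05 and a median SE of 0.34. Among the 7 D0 livers, over 0.86 log2 units, no gene was called (0%), with 1853 (16.1%) at an unadjusted limma p under 0.05 and a median SE of 0.28. Leaving out D0 3 gave 329 calls. Of the genes that rose with Fah among YC livers 35.6% had a slope above 0 among vehicle livers, where 38.2% of all genes had one, and of those that fell 54.4% had a slope below 0. The median slope of all tested genes among vehicle livers was itself below 0, at -0.21. YC and vehicle slopes had the same sign for 47.6% of the called genes and for 48.4% of all tested genes. The slopes of YC and vehicle livers, compared in 1 model, differed for 1518 genes (13.2%), 950 with the higher slope in YC livers (8.27%) and 568 with the lower (4.94%). All these calls ended without vehicle 1, the vehicle liver with least Fah. Vehicle 1 also held the most acinar transcripts of its group, at 466 summed RPKM against 17 to 34.6 RPKM in the other 7. Of the 17 sterol synthesis genes 15 had a higher slope in YC livers, where the list's median was 0.64 against -1.49 in vehicle livers. Gckr differed by 1.37 (limma adjusted p = 0.0197) with vehicle 1 included. For Nqo1 the difference was -1.12 and for Cyp7a1 2.54, neither called (limma adjusted p = 0.155 and 0.0601).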

How the data were processed

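Polyadenylated RNA of 22 livers was sequenced. The deposited table holds RPKM, computed by the authors, in a separate column for each library. The submitters' processing notes name the build mm10 with Cufflinks 1.3.0 and TopHat 1.4.1. Annotation, filters and strand are not stated there. Columns were matched to samples by title.

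From the table log2(RPKM + 0.5) was regressed on log2(Fah + 0.5) over the 7 YC livers for genes with at least 1 RPKM in 4 or more of them, with limma 3.58.1 in R 4.3.3 (trend and robust settings, Benjamini-Hochberg adjustment over 11489 genes, threshold 0.05). A pseudocount of 0.5 understates the change of low genes. The same slope was fitted in vehicle and D0 livers, and YC and vehicle slopes were compared in 1 model. Correlations of Fah with 5 library measures used exact permutation tests, two-sided, over 5040 pairings. Steps between low values gave whole reads for only 28.8 to 34.0% of values, so no count test was run. Depth estimated from these steps was 50300000 to 82900000 reads per library.

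In simulated data of the YC comparison, slopes of 0.25, 0.5 and 1 were given to 57, 74 and 69 of 11489 genes. They were called for 29.8, 73 and 94.2% of these, and 0.0266% of the 11289 unchanged genes were called. Noise was drawn for each gene on its own and few genes were changed, whereas 39.5% were called in the data. These rates therefore need not hold for the data. Coordinates are those of GENCODE vM21 on GRCm38 (mm10), matched by symbol for 17858 of 18716 rows, and 27 rows whose symbols had turned into dates were kept unnamed. Named genes were the 8 largest slopes each way among called genes averaging 5 RPKM or more, the 4 smallest p-values each way, and, from 32 lists, the called member with the smallest p, with the next 2 and the most abundant member not called for 9 lists. Other list members named beside them were chosen after their values were seen. Some genes that the rule or lists hold are not reported here, though counts over all genes and lists include them. The gene order, its rule and the lists were chosen with earlier results of these data known. The labels do not say whether same-numbered YC and vehicle livers share more than a number. Alternatives were other pseudocounts, scalings, forms of Fah, variance settings and terms, and leaving out libraries.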

Additional observations from a re-analysis of the deposited data

Results flagged for a closer look

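Of 148 groups of values examined for a liver far from the rest of its group, 6 had one, and chance flags about 1 in 20. Among YC livers Ei24, a p53-induced gene, was 130.0 RPKM in YC 7 and 98.1 to 109 RPKM in the others. The median-ratio size factor, a scale for the whole library, was 1.01 in YC 4 against 1.18 to 1.27 in the others, and the summed acinar transcripts were 1160 RPKM in YC 4 against 25.9 to 107 RPKM. Among vehicle livers all 3 such values belonged to vehicle 1: Cps1 at 907 RPKM against 438 to 543 RPKM, Sult1e1 at 100 RPKM against 0.254 to 6.27 RPKM, and summed acinar transcripts at 466 RPKM against 17 to 34.6 RPKM.

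For 8 named genes the slope on Fah differed between YC and vehicle livers by limma's adjusted p. The difference, YC minus vehicle, was 4.74 for Saa1 (limma adjusted p = 0.044), 2.70 for Col1a1 (0.0155), 1.86 for Srebf1 (0.0341), 1.54 for Cps1 (0.0163), 1.37 for Gckr (0.0197) and 1.15 for Slc6a12 (0.021). It was -2.38 for Defb1 (0.0237) and -1.35 for Rpl32 (0.0376). Fah spanned 1 log2 unit among vehicle livers and 3.67 among YC livers. None of these differences was called without vehicle 1.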

How the results depend on the processing

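All 60 named genes that moved with Fah kept their call and direction under pseudocounts of 0.1 and 1, median-ratio and quantile scaling, the rank of Fah, array weights and a term for Y-linked transcripts. With Fah as linear RPKM 57 did, and without limma's trend and robust settings 59. In YC 1, YC 2 and YC 3 alone 52 did and 2 changed sign. Without YC 7 and YC 4 47 did, and without YC 7 alone 56. Without YC 6 and YC 7, a choice made after seeing the data as was the fit to the 4 livers without Y-linked transcripts, 48 did and 1 changed sign. The count of 4538 genes was 2568 in YC 1, YC 2 and YC 3 alone (2880 falling became 1457), 1514 without YC 7 and YC 4, the livers farthest from the median Fah (779 rising, 735 falling), and 2571 without YC 6 and YC 7 (837 rising, 1734 falling). The 1658 risers were 1001 with Fah as linear RPKM and 2739 with array weights. With 1 YC liver left out the total ran from 2606 (without YC 7) to 4593, risers from 908 (without YC 7) to 2020 and genes that fell from 1698 (without YC 7) to 2902. Vehicle livers gave 0 calls throughout, and D0 livers 0 to 329, the latter without D0 3. The cause of these shifts was not tested, and the fits also differed in their number of livers.

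The 1518 genes with unequal slopes in YC and vehicle livers became 0 with the replicate block, which left 4 residual degrees of freedom (0 above, 0 below, 1144 genes or 9.96% at an unadjusted limma p under 0.05). Deviations of same-numbered livers correlated at -0.42 to 0.28, over 0.1 for 2 of 7 numbers, and 1 YC liver correlated best with its own number. The labels do not say what the numbers mean, and these correlations cannot settle whether same-numbered livers share more. Median-ratio scaling gave 512 above and 1147 below. With 1 liver left out the count ran from 0 (without vehicle 1) to 1906, with 0 to 1312 above and 0 to 743 below. It was 987 without YC 3, 996 without YC 6, 690 without vehicle 2 and 599 without vehicle 4.

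Slopes changed sign as follows, and the cause was not tested. Afp was -0.15 on linear Fah, -0.03 on its rank, -0.07 with the Y-linked term, -0.86 in YC 1, YC 2 and YC 3 alone, -1.08 without YC 6 and YC 7, and -0.16 to 0.26 with 1 liver left out. Aurka was -0.06 with array weights, -0.17 in YC 1, YC 2 and YC 3, -0.02 without YC 7 and YC 4, -0.06 without YC 6 and YC 7, and -0.06 to 0.07 with 1 liver left out. Quantile scaling gave 0.04 for Apoa1 and 0.01 for Ei24, and array weights 0.01 for Cebpb. In YC 1, YC 2 and YC 3 alone Cebpb was 0.20, Gstm3 0.59, Pcna 0.18, Slc4a2 0.00 and Sult2a3 0.07. Without YC 6 and YC 7, Ei24 was 0.03, Gstm3 0.56, Pcna 0.21 and Sult2a3 0.25. Gstm3 was -0.20 to 0.02 with 1 liver left out.

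With 1 liver left out, Fah correlated at r = 0.93 to 0.99 with the Alb share, -0.95 to -0.76 with summed RPKM, -0.71 to 0.04 with the size factor, -0.68 to 0.05 with estimated depth and 0.01 to 0.82 with genes at 1 RPKM or more. Summed RPKM was at r = -0.86 over 7 livers (exact permutation adjusted p = 0.048), with Spearman's rho = -0.54 (exact permutation adjusted p = 0.59). On median-ratio scaled Fah it was at r = -0.84. The relation of summed RPKM to Fah was no longer called on that scale, nor when any liver other than YC 1 was left out. The relation of the Alb share to Fah was no longer called when YC 4, YC 6 or YC 7 alone was left out. Depth in reads was estimated only, so what it limits was not tested.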
